A study of Mus musculus with 4 samples.

Results

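The 7 genes described here are those of the LIF, JAK and STAT3 pathway that were picked by name: the receptor genes Lifr and Il6st, the kinase gene Jak1, the transcription factor gene Stat3, the inhibitor gene Socs3 and the target genes Pim1 and Pim3. All 7 were matched by symbol to an Ensembl identifier present in both count tables, out of 46078 genes in the tables. They were followed in single wild-type mouse ES cells of the E14 line, sequenced by Smart-seq2, which reads whole transcripts and adds no molecular identifiers, so that counts are reads and not molecules. Cells had been grown in 2i, in which MEK and GSK3 are inhibited. They were sorted through a gate for small cells, meant to take mostly cells in G1 or just out of mitosis, or left ungated, and spent the next 6 h either in 2i or in plain N2B27, which lets them leave naive pluripotency. The 4 groups are the small and ungated cells of 2i and the small and ungated cells of N2B27, each of them 1 sample of 24 cells. Lists of 4 values below follow this order unless they name the groups. The study's routine 2i medium also holds LIF, but the sources used here do not state whether LIF was in the 2i medium of the 6 h after sorting, and the labels name 2i alone. With 1 sample per group no test could be run, no p-value is given, and 95% intervals cover counting error only. The 2i cells and the N2B27 cells carry a different library number each. The labels name no plate, and plate below means the cells of 1 such number. Medium cannot be told apart from plate in this sense or from anything else that went with it. The 2 gates were compared within a plate, on different index rows of it.

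LIF, a cytokine of the interleukin-6 family, binds a receptor made of the LIFR protein and gp130, the product of Il6st. JAK kinases bound to the receptor then phosphorylate STAT3, which enters the nucleus and binds DNA. In mouse ES cells this pathway helps to hold the naive state, in part through the transcription factors Klf4 and Tfcp2l1. STAT3 also switches on Socs3, whose product blocks the receptor and its kinases, and the genes of the PIM kinases, which promote growth and survival. STAT3 is controlled largely by phosphorylation, which transcript counts do not measure.

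STAT factors bind a palindrome with the letters TTCNNNGAA, which reads alike on both strands. The promoters of 3 genes at the end of the pathway are shown here, Socs3 because its window holds the palindrome and Pim1 and Pim3 because their shares of cells moved together between gates. Each runs from 250 bases before to 50 bases after a transcription start in RefSeq, build GRCm38.p6, with a palindrome in capitals. The Socs3 window lies at chr11:117969317-117969616 on the minus strand, the first of the 2 Pim1 windows at chr17:29490535-29490834 and the Pim3 window at chr15:88861944-88862243, both on the plus strand.
Socs3: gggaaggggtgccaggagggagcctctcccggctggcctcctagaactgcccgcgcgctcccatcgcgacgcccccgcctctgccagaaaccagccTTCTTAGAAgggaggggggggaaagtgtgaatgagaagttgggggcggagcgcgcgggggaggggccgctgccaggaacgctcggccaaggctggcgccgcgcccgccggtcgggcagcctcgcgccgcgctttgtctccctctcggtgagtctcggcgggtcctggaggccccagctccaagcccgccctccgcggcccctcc
Pim1: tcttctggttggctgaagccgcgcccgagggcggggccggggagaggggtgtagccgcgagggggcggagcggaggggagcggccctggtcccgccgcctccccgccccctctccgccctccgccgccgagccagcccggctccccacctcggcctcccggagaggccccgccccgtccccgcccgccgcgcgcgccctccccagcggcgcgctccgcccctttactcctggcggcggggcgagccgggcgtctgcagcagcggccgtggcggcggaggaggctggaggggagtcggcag
Pim3: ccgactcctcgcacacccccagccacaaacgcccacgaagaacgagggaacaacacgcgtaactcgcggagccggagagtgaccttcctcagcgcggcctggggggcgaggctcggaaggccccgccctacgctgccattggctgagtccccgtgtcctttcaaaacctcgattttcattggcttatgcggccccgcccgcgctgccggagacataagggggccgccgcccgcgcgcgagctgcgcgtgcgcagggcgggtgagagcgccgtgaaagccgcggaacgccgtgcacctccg
The Socs3 palindrome, TTCTTAGAA, began 154 bases before the start. Of the 9 windows of the 7 genes no other held these letters, and of 32851 mouse promoter windows of the same length 8.30% did. A match of letters does not show that a factor binds there, and none in a window of 300 bases says nothing of sites elsewhere.

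After removal of cells with few counts, few genes or many mitochondrial counts, 12 of 24 2i small, 22 of 24 2i ungated, 20 of 24 N2B27 small and 21 of 24 N2B27 ungated cells were kept, with 1364155 to 4844170 counts on genes per cell. Small cells held fewer genes (medians of 7603 and 7462.5 against 9515.5 and 8200 in ungated cells of 2i and N2B27) and a larger share of counts on the ERCC spike-ins (medians of 3.47% and 2.45% against 1.28% and 1.14%). All 5 ES cell markers (Pou5f1, Sox2, Nanog, Zfp42 and Esrrb) had counts in every group, and the 5 fibroblast genes were at 0 in both N2B27 groups, with no cell reaching 10 counts in 2i. Other lists were less clean: of 5 genes each, 0 to 3 primitive endoderm, 3 to 4 trophoblast and 3 neural genes reached 10 counts in some cell of a group, although the summed primitive endoderm level of the median cell was 0 in every group. The part of such cells in the values below was not tested. A pair of 2i small cells stood apart and bear on several values below. One had 15712 genes with a count, where no other kept cell passed 10335. The other had 40.9% spike-in counts and a size factor of 0.133, so that each of its reads weighs heavily in a mean. Counts were divided by DESeq2 size factors (normalized counts), and a cell was taken to hold a gene at 10 or more counts. In the 10 wells with more spike-in than gene counts, Pim3 had a count in 6 wells but never above 3, whereas Il6st reached 30 in 1 well, above the limit of 10. Cells that hold Il6st at 15, 23 or 26 counts, below the level of that well, are therefore uncertain. The plot of normalized counts per cell shows the levels from which the values below were taken.

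**Figure D1:**
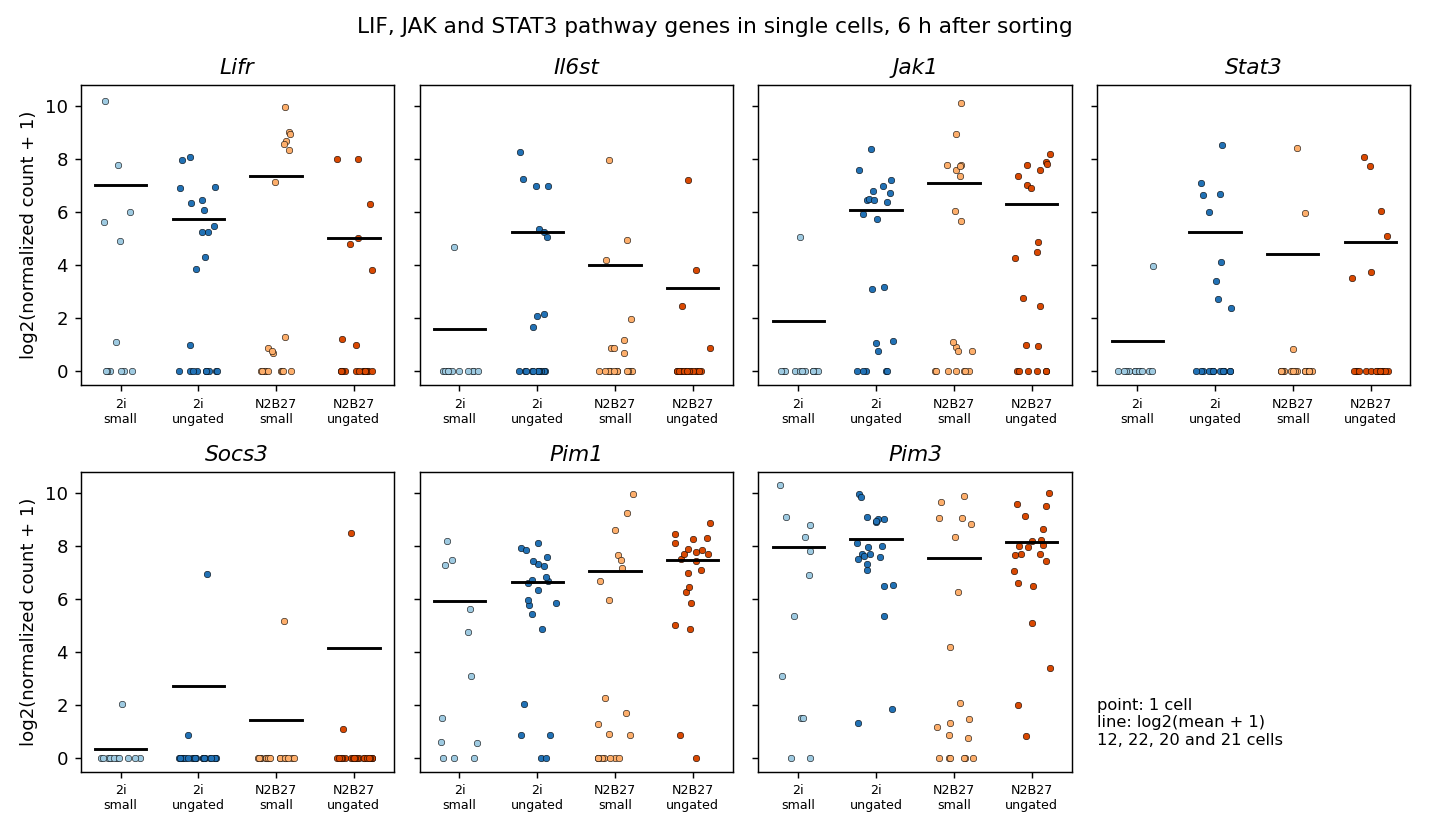
Normalized counts of the 7 genes in each kept cell (y axis, log2 of the normalized count plus 1), by medium and gate (x axis; 12, 22, 20 and 21 cells), with the log2 of each group mean plus 1 as a line. For most genes the cells fall into a low set near 0 and a high set, and the mean lies between them.

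Lifr (chromosome 15, 7090614 to 7197489, plus strand, GENCODE M21 on GRCm38) encodes the part of the receptor that is specific to LIF and its near relatives. In 2i small cells its normalized count ranged from 0 to 1183 with a median of 0.591, and in 2i ungated cells from 0 to 269 with a median of 16.2. In N2B27 small cells it ranged from 0 to 991 (median 0.657) and in N2B27 ungated cells from 0 to 255 (median 0). The groups overlap at 0, and about as large a share of small as of ungated N2B27 cells held the gene: 7 of 20 (15.4% to 59.2%, exact Clopper-Pearson) against 6 of 21 (11.3% to 52.2%). What differed was the level in the cells that held it. The 7 small cells had 141, 321, 382, 407, 497, 517 and 991 normalized counts, whereas the 6 ungated cells had 13.02, 27.2, 31.3, 78.6, 253 and 255. Of the 7 small cells 6 were thus above every ungated cell. The group means were 163 and 31.5, a log2 ratio of 2.46 relative to the median gene (5.49-fold higher), and the ratio stayed between 1.63 and 2.97 under 16 alternative settings. On their own, the index rows gave means of 93.0 and 249 in small cells and of 26.1 and 37.4 in ungated cells. Among the small cells that held Lifr, 3 were in G1, 2 in S and 2 in G2/M, where the group had 6, 11 and 3 cells. Of the ungated cells that held it, 1 was in S and 5 in G2/M, where the group had 2, 4 and 15 cells in G1, S and G2/M.

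In 2i the higher mean of Lifr in small cells (129 against 52.0, log2 ratio 1.65) rested on 1 cell. That cell was the one with 40.9% spike-in counts, in which 157 reads became 1183 normalized counts. Without it the small-cell mean was 32.7 and the ratio -0.35. Among cells in S phase the ratio was -1.82. There only 1 of 5 small and 3 of 7 ungated cells held Lifr, and the small one was the cell with 15712 genes. The cells that held the gene numbered 5 of 12 small and 12 of 22 ungated, with overlapping intervals (15.2% to 72.3% and 32.2% to 75.6%). A higher mean in small cells was therefore seen in N2B27 and, apart from the cell with 40.9% spike-in counts, not in 2i. Whether the 2 media differ in this was not tested. Between media the ratio was 0.26 in small cells and -0.68 in ungated cells, neither past 2-fold. The same cell decides the first of these: without it Lifr was higher in N2B27 than in 2i small cells (163 against 32.7, ratio 2.20), and over the alternatives that ratio ran from -2.95 to 2.20.

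Il6st (chromosome 13, 112464070 to 112510086, plus strand) encodes gp130, the signalling chain shared by the receptors of the family. It was sparse in every group. It was held by 1 of 12 2i small cells (24.6 normalized counts), 7 of 22 2i ungated cells (median of these 124, highest 307), 3 of 20 N2B27 small cells (17.2, 29.7 and 249) and 2 of 21 N2B27 ungated cells (13.02 and 148). The group means were 2.05, 37.6, 15.1 and 7.94, whose own mean lies below the minimum of 20 set for a gene to be tested, and each N2B27 mean came almost wholly from 1 cell, which gave 81.9% of the counts in small and 87.8% in ungated cells. All 64 counts of the 2i small group were in the cell with 15712 genes. The other 11 cells had none, which allows a share of up to 27.3% of cells. Of the 7 ungated 2i cells that held Il6st, 6 were in G2/M, where 15 of the 22 cells lay.

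Few cells held both receptor chains, since few held Il6st. Lifr and Il6st reached 10 counts together in 1 2i small cell, 6 2i ungated cells, 1 N2B27 small cell and no N2B27 ungated cell. In 2i ungated cells these were 6 of the 7 cells with Il6st, where 12 of 22 cells held Lifr. No cell of the 75 held all 4 of Lifr, Il6st, Jak1 and Stat3. At this capture a gene not found in a cell is not shown to be absent from it.

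Jak1 (chromosome 4, 101152367 to 101265282, minus strand) encodes a kinase bound to gp130, and had the largest single ratio of the 7 genes. In 2i ungated cells it ranged from 0 to 330 normalized counts with a median of 56.0, and in N2B27 small cells from 0 to 1113 with a median of 1.01. In N2B27 ungated cells it ranged from 0 to 289 with a median of 18.5. In 2i small cells it was near absent: all 84 counts (67.0 to 104, exact Poisson) were in the cell with 15712 genes, at 32.3 normalized counts, and the other 11 cells had no count. It was held by 1 of 12 2i small cells (0.211% to 38.5%) against 13 of 22 2i ungated cells (36.4% to 79.3%). The 2 intervals overlap by a small margin. The 1 small cell that held Jak1 was the cell with 15712 genes, so 0 of 11 without it follows from which cell is dropped. No comparison of intervals was therefore drawn from those 11 cells. The difference of -50.8 percentage points compares with a median of -21.2 points over the 8730 genes tested. Of these, 4.38% had a difference at least as low. A fall of this size is possible only for genes held by most ungated cells, which were not counted alone. Of the 2i ungated cells that held Jak1, 6 were on one index row and 7 on the other, with 11 cells each.

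The mean of Jak1 was 2.69 in 2i small cells, 67.6 in 2i ungated cells, 136 in N2B27 small cells and 78.8 in N2B27 ungated cells. The log2 ratio of small to ungated cells was thus -3.86 in 2i and 0.90 in N2B27, and that of N2B27 to 2i was 5.13 in small and 0.25 in ungated cells. The 2i small group is the one that stands apart. Its ratio to ungated cells was below 0 in 18 of 18 alternatives and past 2-fold in 17, and its ratio to N2B27 small cells was past 2-fold in 17 of 17. In N2B27, Jak1 was held by 9 of 20 small cells and 11 of 21 ungated cells, and its highest small cell gave 46.2% of the group's counts. Since 12 of the 24 2i small cells had been left out, the group is the smallest of the 4, and the part of cell quality in the low Jak1 level was not tested.

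Stat3 (chromosome 11, 100885098 to 100939540, minus strand), the transcription factor of the pathway, was held by few cells of either gate. It was found in 1 of 12 2i small cells (14.8 normalized counts), 7 of 22 2i ungated cells (9.58 to 373, median 101), 2 of 20 N2B27 small cells (60.98 and 342) and 6 of 21 N2B27 ungated cells (10.4 to 266, median 48.7). In both media the share was lower in small cells, with differences of -23.5 percentage points in 2i and -18.6 in N2B27, but all 4 intervals overlap and the median gene was also lower, at -21.2 and -12.4 points. The means were 1.24, 36.9, 20.2 and 28.4. The log2 ratio of small to ungated cells was -3.72 in 2i and -0.35 in N2B27. The 2i small mean rested on 26 counts (17.0 to 38.1, exact Poisson) in 1 cell, here not the cell with 15712 genes, and 1 cell gave 90.8% of the counts of N2B27 small cells. Between media the ratio was 3.16 in small and -0.33 in ungated cells.

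Socs3 (chromosome 11, 117966079 to 117970047, minus strand), the feedback inhibitor whose promoter is shown above, was all but undetected. It reached 10 counts in no 2i small cell, which allows a share of up to 25%, and in 1 cell of each other group, at 123, 34.7 and 355 normalized counts in 2i ungated, N2B27 small and N2B27 ungated cells. That cell gave all but at most 1 of its group's counts, so that the ratios between groups (from -2.59 to 1.47) each compare single cells. At this depth no difference of Socs3 between groups was detectable. Socs2, another gene of the family and measured in the same cells, was held by 9 of 12, 18 of 22, 14 of 20 and 20 of 21 cells, with means of 340, 302, 545 and 553 normalized counts.

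**Figure D2:**
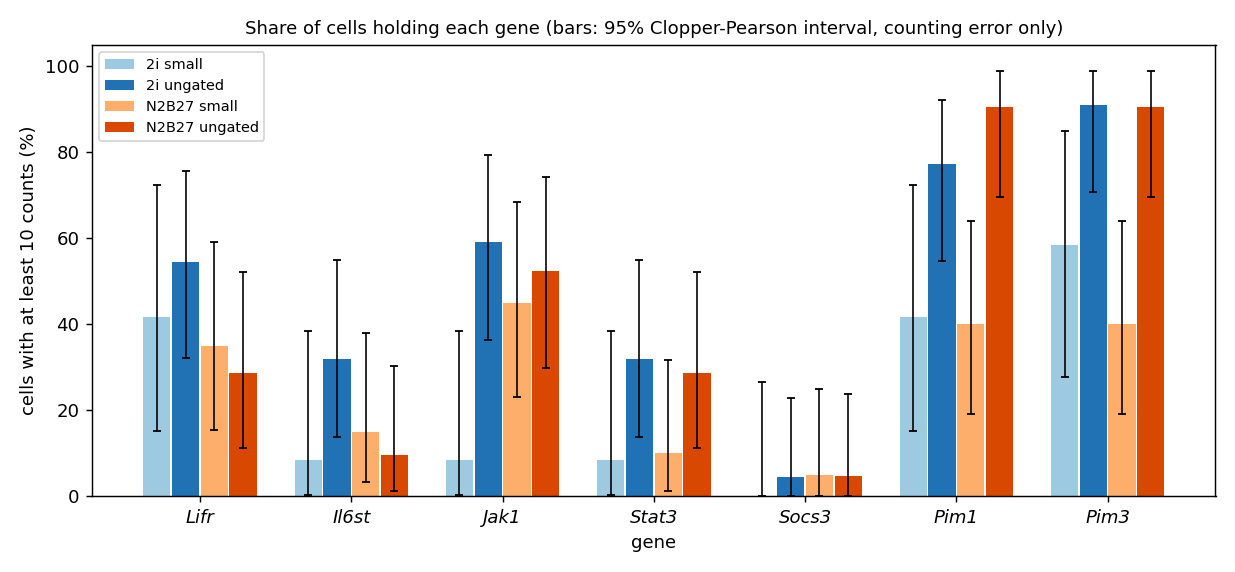
Share of kept cells with at least 10 counts of each gene (bars, %), by medium and gate, with exact 95% Clopper-Pearson intervals that cover counting error only. In N2B27, Pim1 and Pim3 were each held by 40.0% of small and 90.5% of ungated cells, with intervals that do not overlap. The share of all genes with intervals apart in this way was not computed.

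Pim1 and Pim3 encode serine and threonine kinases and were the members held by the most cells. Pim1 (chromosome 17, 29490753 to 29496112, plus strand) had medians of 4.68, 88.3, 1.84 and 180 normalized counts in the 4 groups, was at 0 in some cells of each and reached 290, 272, 991 and 468. Pim3 (chromosome 15, 88862186 to 88865726, plus strand) had medians of 78.5, 206, 1.65 and 206 and reached 1245, 1004, 932 and 1024 in the same order. The medians of both genes in N2B27 small cells were near 0, while ungated cells in the same medium lay near those in 2i or above. The highest Pim1 level of all kept cells was nonetheless in an N2B27 small cell.

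In N2B27, 8 of 20 small cells held Pim1 (40.0%, 19.1% to 63.9%) and 19 of 21 ungated cells did (90.5%, 69.6% to 98.8%). The counts of cells were the same for Pim3. The difference of -50.5 percentage points for each compares with a median of -12.4 points over all genes tested. Of these genes, 1.09% were at or below -50.5 points and 76.2% were below 0. Only genes held by most ungated cells can fall this far, and such genes were not counted alone. Thinning every cell to 1364155 counts left 8 and 19 cells for Pim1 and 8 and 18 for Pim3. The index rows gave 4 of 11 and 4 of 9 small cells against 11 of 11 and 8 of 10 ungated cells for Pim1. For Pim3 they gave 6 of 11 and 2 of 9 against 10 of 11 and 9 of 10. Neither gene was found in 10 of 20 small cells and in 1 of 21 ungated cells, and both were found in 6 and 18. In 2i the shares were also lower in small cells, at 5 of 12 against 17 of 22 for Pim1 and 7 of 12 against 20 of 22 for Pim3, but the intervals overlap and 23.0% and 30.6% of all genes were as low or lower.

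The means of Pim1 and Pim3 did not show this difference, since few N2B27 small cells carried most of the counts. The highest 3 cells gave 79.7% of the Pim1 and 65.3% of the Pim3 counts in small cells, against 32.6% and 43.6% in ungated cells. In cells that held the gene the median was 186 normalized counts for Pim1 and 489 for Pim3 in small cells, against 207 and 249 in ungated cells. The log2 ratio of means was therefore within 2-fold in N2B27 (-0.28 for Pim1 and -0.50 for Pim3), whereas the difference of the mean log2 values per cell, which counts each cell alike, was -2.38 and -2.69 relative to the median gene. Between gates in N2B27, 39.1% of all genes tested were past 2-fold by the latter measure, against 28.8% by the ratio of means. In 2i the latter measure gave -0.75 and -0.82, and 48.4% of genes were past 2-fold by it.

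Phase differed between gates and moved with these shares. Cyclone, which scores a cell from pairs of marker genes, placed 6 N2B27 small cells in G1, 11 in S and 3 in G2/M, and 2, 4 and 15 ungated cells. Pim3 was held by 0 of 6 G1 cells (which allows up to 50%), 6 of 11 S cells and 2 of 3 G2/M cells of the N2B27 small group, and Pim1 by 1, 5 and 2. In 2i small cells Pim3 was held by 1 of 6 G1 cells and 5 of 5 S cells. There the median gene was held by 33.3% of G1 and 60.0% of S cells, and 41.5% of all genes were as low as Pim3 in G1 or lower. The 2i small G1 cells had 6526 genes and 10.5% spike-in counts at the median, against 8245 and 2.32% in S. In N2B27 ungated cells Pim1 and Pim3 were each held by 2 of 2 G1, 3 of 4 S and 14 of 15 G2/M cells. Within S phase the N2B27 gates thus stood at 6 of 11 and 3 of 4 for Pim3, with too few cells to compare. G1 small cells in N2B27 also had 6339.5 genes detected and 4.93% spike-in counts at the median, against 7758 and 2.36% in S. The median gene was held by 33.3% of these G1 cells and 45.5% of S cells, and 22.1% of all genes tested were, like Pim3, held by no G1 cell. The part of phase and of RNA content in the share of Pim1 and Pim3 was not tested.

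Per kilobase of exon, Pim3 had the highest level of the 7 genes in every group, with 101, 126, 75.8 and 117 normalized counts per kb in the 4 groups. Pim1 followed with 17.5, 29.1, 39.5 and 52.2. Jak1 had 0.372, 9.36, 18.8 and 10.9, and Lifr 11.9, 4.83, 15.1 and 2.92, so that the order of these 2 genes depended on the group. Il6st (0.185 to 3.39), Stat3 (0.130 to 3.87) and Socs3 (0.0886 to 5.87) were lowest and cannot be ordered, because single cells carry their means. Of the exon bases of Pim1, 488 are shared with Gm26885, a gene on the other strand with 75 counts over all 96 cells, and Stat3 shares 72 with Stat5a and Jak1 4 with Raver2. Reads that fell on 2 genes at once were left out by the counter, so these genes may be undercounted there.

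Cells held few of the 7 genes at once. The median cell held 1.5 of them in 2i small, 4 in 2i ungated, 2 in N2B27 small and 3 in N2B27 ungated cells, and 2, 0, 3 and 1 cells held none. After the mean of each group was subtracted, Pim1 and Pim3 had a Pearson correlation of 0.29 over the 75 cells, and the other pairs of members lay between -0.09 and 0.23. The cells share plates, depth and RNA content, and Pim1 and Pim3 had correlations of 0.35 and 0.25 with the number of genes detected and of -0.35 and -0.33 with the spike-in share. These values describe the cells and carry no test. Among 6646 genes, those most like Pim1 were Vars (0.61), Rrp1 (0.60) and Rnf40 (0.56), and those most like Pim3 were L3mbtl2 (0.64), Rnf187 (0.62) and Mvd (0.58). Jak1 was most like Mrps11 (0.40), Dusp11 (0.40) and Unc119 (0.39), and Lifr was most like Gm13341 (0.43), Ccdc6 (0.41) and Cdc73 (0.41). All of these are the highest values picked out of 6646 genes. How high such picked values come for unrelated genes was not computed, so no shared expression is read from them.

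The ratios of means of the 7 genes can be set against all genes. A mean of at least 20 was reached by 5 of the 7, but not by Il6st and Socs3. Between gates in 2i, 3 of 5 were past 2-fold relative to the median gene, Lifr higher and Jak1 and Stat3 lower, where 41.2% of the 8730 genes tested were past it (22.3% higher and 18.9% lower). Between gates in N2B27 it was 1 of 5, Lifr, against 28.8% of all genes (14.2% higher and 14.7% lower). Between media in small cells 3 of 5 were higher in N2B27 (Jak1, Stat3 and Pim1) and none lower, against 41.0% of genes past 2-fold (20.6% higher and 20.4% lower). In ungated cells 0 of 5 were past 2-fold between media, against 17.3% (7.77% higher and 9.5% lower), at ratios of -0.68 for Lifr, 0.25 for Jak1, -0.33 for Stat3, 0.87 for Pim1 and -0.08 for Pim3. The medians of the 5 ratios were -0.36, -0.28, 1.07 and -0.08, where that of all genes is 0 by construction (before centring -0.36, -0.12, 0.09 and -0.03). Small cells in 2i enter both comparisons in which 3 genes passed. With 5 genes and so many others past 2-fold, nothing about the pathway can be read from these counts.

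**Figure D3:**
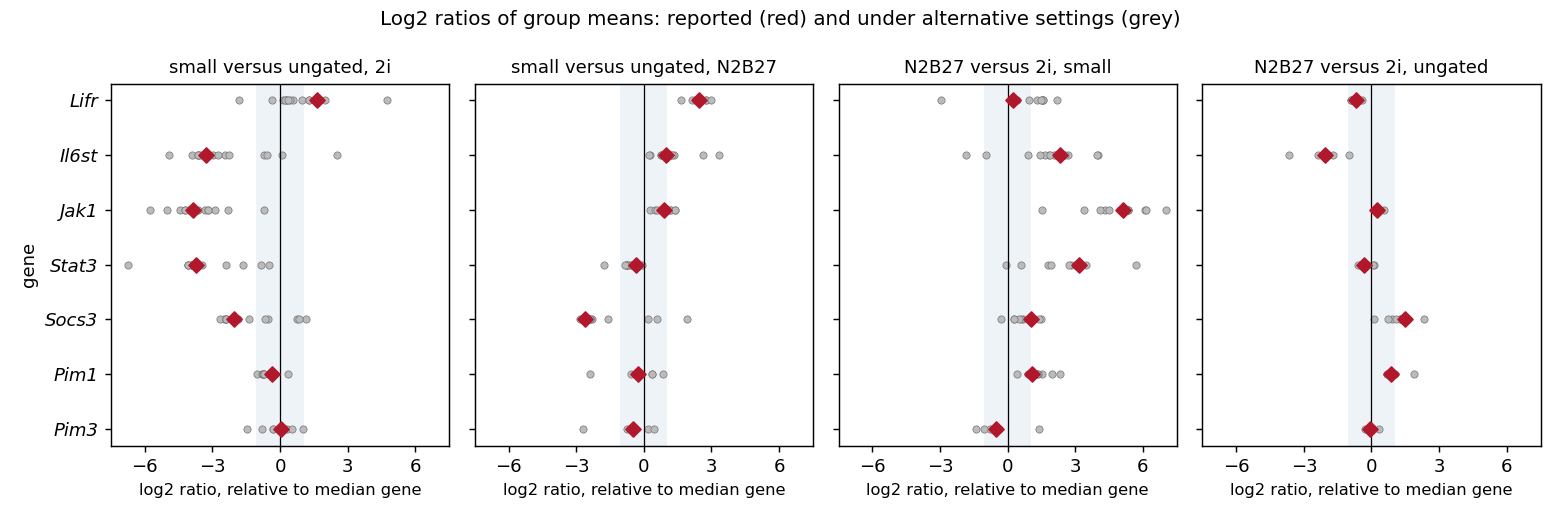
Log2 ratio of group means of the 7 genes relative to the median gene (x axis) in the 4 comparisons, as reported (red diamonds) and under the alternative settings (grey points), with the range within 2-fold shaded. Lifr between gates in N2B27 (1.63 to 2.97) and Jak1 between media in small cells (1.54 to 7.03) were past 2-fold at every setting, while Lifr between gates in 2i spread from -1.82 to 4.76.

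The other genes of the pathway were a list of 48 named by role, of which 26 had a mean of at least 20. Past 2-fold were 4 higher and 10 lower in small than in ungated 2i cells, 2 higher and 3 lower in N2B27, 8 higher and 3 lower in N2B27 than in 2i among small cells, and 3 higher and 3 lower among ungated cells. Of all genes tested, 22.3% were higher and 18.9% lower in the first comparison, 14.2% and 14.7% in the second, 20.6% and 20.4% in the third and 7.77% and 9.5% in the last. Without the 2i small cell of 40.9% spike-in counts, a step added after the data were seen, the 2 comparisons with that group gave 3 higher and 10 lower, and 9 higher and 2 lower.

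Of the ligands, Lif itself had counts only in 2i. It had 161 counts in 2i small and 242 in 2i ungated cells and reached 10 counts in 3 of 34 2i cells, against no count in 41 N2B27 cells, which allows a share of up to 7.32%. Osm, the gene of a related cytokine, had 190 counts in 5 of the 34 2i cells and 1 count in the N2B27 cells. Both are too rare for a ratio to be read, and medium and plate cannot be told apart. Ctf1, the gene of cardiotrophin, was the 1 ligand with a mean of at least 20 and was higher in small than in ungated 2i cells (76.6 against 37.9, log2 ratio 1.36). It was held by 4 of 12 and 8 of 22 of these cells, so few cells carry that ratio. Of the other receptors none had a mean of at least 20. Cntfr, which encodes the binding chain for ciliary neurotrophic factor, had 878 counts in N2B27 ungated cells, of which 7 of 21 held it, and no count in 20 N2B27 small cells (up to 15.0%). The median gene was also held by fewer small than ungated N2B27 cells, at -12.4 percentage points. The share of all genes with a pattern like that of Cntfr was not computed.

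Among the other JAK kinases, the mean of Jak3 was, like that of Jak1, lowest in 2i small cells, at 2.90, 48.8, 51.2 and 29.9 normalized counts. Its log2 ratios were -3.31 between gates in 2i and 3.66 between media in small cells. It was held by only 2 of 12, 6 of 22, 5 of 20 and 4 of 21 cells, so few cells carry these means. Tyk2 was 1.39 higher on the log2 scale in N2B27 than in 2i small cells, of which only 4 of 20 and 2 of 12 held it. Jak2 had 1 count in all kept cells. Of the other STAT genes, Stat2 was higher in small than in ungated cells in 2i (3.58) and lower in N2B27 (-2.36), with means of 94.1, 9.25, 0.911 and 9.67. It was held by 4, 4, 1 and 5 cells. In 2i small cells 1 cell gave 74.4% of its normalized counts, and without it the mean was 26.3. Its ratio between media was -5.72 in small cells. Stat6 was lower in N2B27 than in 2i among small cells (-1.08), of which 3 of 20 and 6 of 12 held it. The ratio of Stat4 between gates in 2i (6.21) came from the cell with 40.9% spike-in counts, which gave 1357 of 1548 counts, and its mean without that cell was 9.36 against 861 with it. In ungated cells Stat4 was higher in N2B27 (1.19). Stat5a was found in N2B27 ungated cells, with 550 counts in 6 cells, and had at most 1 count in each other group. How many of all genes are found in 1 group alone in this way was not computed.

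Of 8 inhibitor genes with enough counts, 3 were lower in small than in ungated 2i cells and none higher, where 18.9% of all genes were lower and 22.3% higher: Pias3 (-2.15) and Pias4 (-1.53), whose products inhibit STAT proteins, and Socs6 (-1.23). Pias3 was lower in N2B27 too (-2.37, 13.9 against 82.5), with 2 of 20 small and 9 of 21 ungated cells holding it. Ptpn6, which encodes a phosphatase, was lower in N2B27 than in 2i among ungated cells (-1.52). Of 4 genes of adaptors that lead from gp130 to the RAS and MAPK pathway, 3 were lower in small 2i cells (18.9% of all genes), Ptpn11 (-1.67), Grb2 (-1.62) and Shc1 (-1.46). Grb2 (2.58) and Shc1 (1.58) were higher in N2B27 than in 2i among small cells, and Ptpn11 was lower among ungated cells (-1.30).

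Of the known targets of STAT3, 8 had enough counts. Between gates, 1 was higher and 3 were lower in small 2i cells, and 2 and 1 in small N2B27 cells. Between media, 4 were higher and 0 lower in N2B27 among small cells, and 2 and 1 among ungated cells. Of all genes tested, 22.3% and 18.9%, 14.2% and 14.7%, 20.6% and 20.4%, and 7.77% and 9.5% were higher and lower. Mcl1, which encodes a survival protein, was higher in small cells in 2i (1.17) and N2B27 (1.57). Klf4 was higher in small cells in N2B27 (3.56, 46.3 against 3.37) and lower in N2B27 than in 2i among ungated cells (-2.40). Tfcp2l1 was within 2-fold in all 4 comparisons. It was held by 7 of 12, 21 of 22, 6 of 20 and 10 of 21 cells. The share of all genes that shift as much between media was not computed. Junb was lower in small cells in 2i (-1.39) and N2B27 (-1.32) and higher in N2B27 among small (2.48) and ungated cells (2.29). Fos (-4.80) and Klf5 (-1.45) were lower in small 2i cells. Fos (5.46), Klf5 (1.88) and Myc (1.33) were higher in N2B27 than in 2i among small cells, as was Myc among ungated cells (1.17). Fos was held by 0 of 12, 3 of 22, 3 of 20 and 4 of 21 cells. In the same order Junb was held by 1, 4, 2 and 10, Klf4 by 2, 8, 6 and 2, and Myc by 3, 5, 4 and 6 cells. Klf5 was held by 5, 19, 14 and 20. The ratios of Fos, Junb, Klf4 and Myc thus compare means that few cells carry. Fos and Junb are also genes that respond to cell handling. Of the 7 handling genes listed, 3 had a mean of at least 20, of which 2 were lower in small cells in 2i and 1 in N2B27, and 3 were higher in N2B27 among small and 1 among ungated cells. Their part in these values was not tested.

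**Figure D4:**
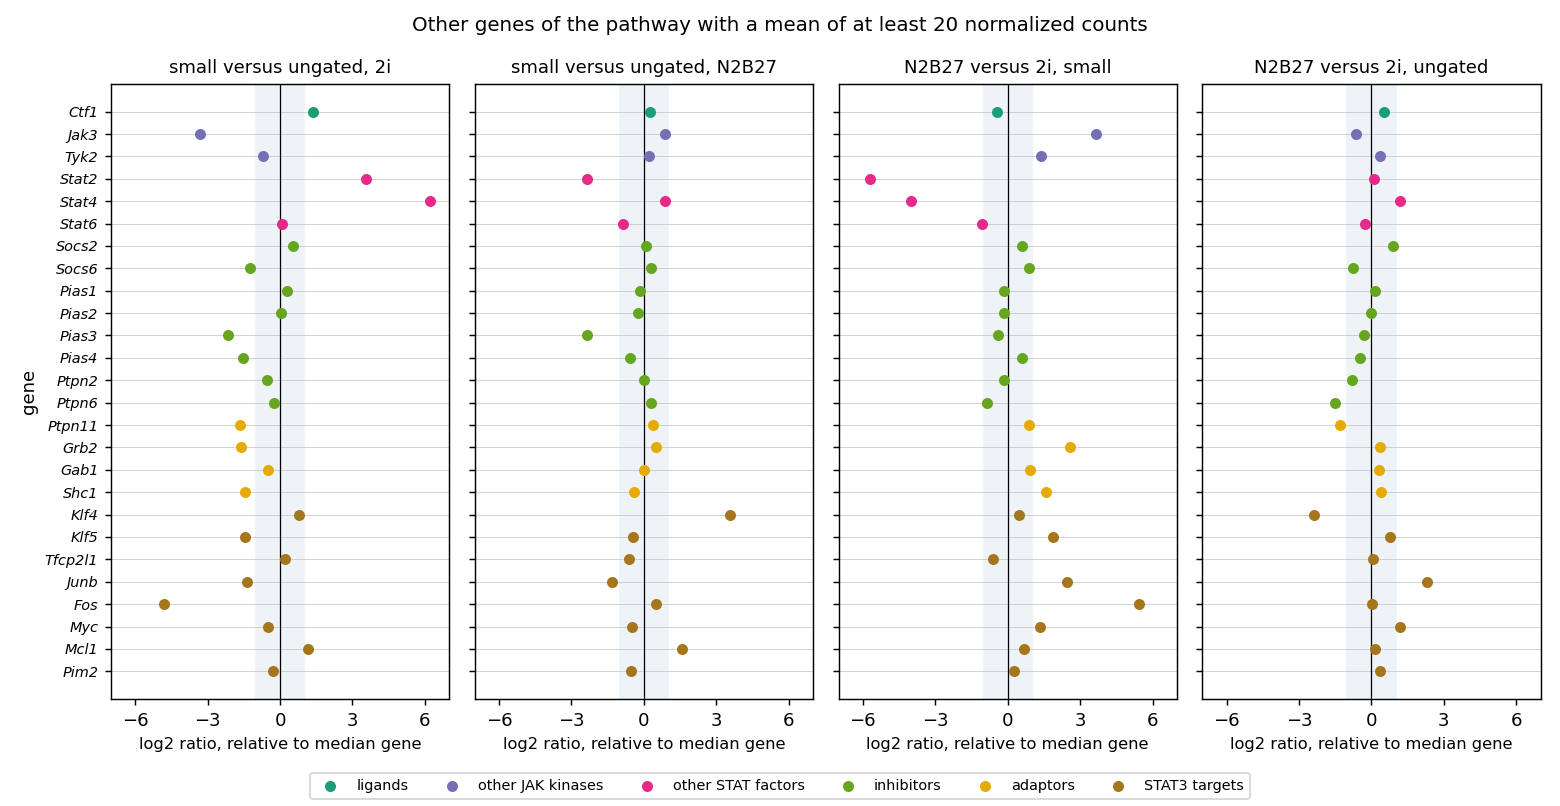
Log2 ratio of group means relative to the median gene (x axis) for the 26 other pathway genes whose mean reached 20 normalized counts, coloured by role, in the 4 comparisons, with the range within 2-fold shaded. In 2i, 10 of the 26 lay past 2-fold on the side of ungated cells and 4 on the side of small cells, where 18.9% and 22.3% of all genes did. In ungated cells 20 of 26 lay within 2-fold between media.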

How the data were processed

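Smart-seq2 libraries of 4 samples with 24 cells each were analysed. Per the submitters' processing notes and the methods, the authors trimmed reads with Trim Galore 0.4.4, aligned them to GRCm38 (mm10) with GSNAP, counted them per gene with HTSeq and deposited raw counts, 1 table per medium. Columns were matched to samples through the list of sequencing runs. Genes took 72.4% of all counts, ERCC spike-ins 3.85% and reads on more than 1 gene 6.77%; rows that name no gene were left out of totals.

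The filter on cells used isOutlier of scater 1.30.1 within each plate, at 3 median absolute deviations. No doublet caller was run on these single sorted cells. Size factors came from DESeq2 1.42.0 over 75 kept cells and 1227 genes with a count in each, and phases from cyclone in scran 1.30.0. Genes were tested against the fold threshold of 2 when the mean of the 4 group means was at least 20; ratios are log2 of the group means plus 1, minus the median over those 8730 genes. Intervals are exact Poisson or Clopper-Pearson at 95%, and the floor for a count of 0 is 3 counts. Tools were R 4.3.3 and Python 3.11.15 (pandas 2.3.3, numpy 2.4.6, matplotlib 3.10.9, scipy 1.17.1). The ratio step was tested on simulated data. Alternatives covered the filter on cells, the size factors, the summary over cells, thinning, the pseudocount, the threshold, the minimum mean, the phase and the 2i small cells that stood apart.

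No p-value was computed, because each group is 1 sample. The members and gene lists were chosen with earlier results of these data known. Genes named are the 7 members and other pathway genes past 2-fold (at most 3 per role and direction). Lif, Osm, Cntfr, Stat5a, Jak2, Socs2, Tfcp2l1 and, among small cells, Myc were named after their values were seen. Also named are the 3 genes most like each member with a mean of at least 20 and a count in 50% of cells.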

Additional observations from a re-analysis of the deposited data

Results flagged for a closer look

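Il6st moved in opposite directions between media in the 2 gates. Relative to the median gene its log2 ratio of N2B27 to 2i was 2.32 in small cells and -2.08 in ungated cells. This difference was not tested, since each group is 1 sample, and its means of 2.05, 37.6, 15.1 and 7.94 normalized counts in small and ungated 2i cells and small and ungated N2B27 cells were carried by 1, 7, 3 and 2 cells. With no filter on cells and CPM in place of size factors, changed together, the sign in small cells turned (-1.85). The 2i small cells left out include a well with 30 Il6st counts among 21835 counts on genes and 96.1% spike-in counts.

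Cells left out for low quality, which enter no comparison, held 3 of the genes. The highest counts in such a cell were 443 for Il6st and 952 for Pim1, both in the same N2B27 small cell with 8.37% spike-in counts and 1107513 counts on genes, and 634 for Jak1 in another N2B27 small cell. Of the 21 cells left out, 3 reached 10 counts for Il6st, 1 for Jak1 and 1 for Pim1, and none for Lifr, Stat3, Socs3 or Pim3.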

How the results depend on the processing

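The 7 genes gave 462 ratios under alternative settings. Of these, 249 stayed within an interval as wide as the counting interval but centred on the reported ratio. Another 199 moved further and 14 changed the sign of a ratio past 2-fold. The cause was not tested where no value is given. With no filter on cells and CPM, Il6st turned to 2.55 between gates in 2i and to -1.85 between media in small cells, and Stat3 to -0.070 in the latter. Spike-in size factors took Il6st to -0.98 between media in small cells. Means of log2 values took Socs3 to 1.17 between gates in 2i and 0.56 in N2B27. With the highest cell of each gene left out these were 0.74 and 0.20, and -0.29 between media in small cells. Lifr between gates in 2i became -0.35 once the 2i small cell of 40.9% spike-in counts was left out and -1.82 in S phase only, where Il6st became 0.11 and Socs3 0.84, and Socs3 in N2B27 1.92.

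The number of the 7 genes past 2-fold between gates in 2i (3) was 1 with means of log2 values, the highest cell left out or thinned cells, and 5 with no minimum mean. It was 1 lower than reported with CPM alone, scran or spike-in size factors or pooled counts. With fixed limits or S phase only it was 1 higher. Which genes passed also changed between settings. Between gates in N2B27 (1) it was 3 with no filter on cells together with CPM, fixed limits or means of log2 values, and 2 with scran, poscounts or spike-in size factors, a threshold of 1.5-fold, no minimum mean or S phase only. Between media in small cells (3) it was 5 with fixed limits or no minimum mean. It was 1 higher than reported with CPM, with or without the filter on cells, with scran, poscounts or spike-in size factors, and with pooled counts. With means of log2 values or the highest cell left out it was 1 lower. In ungated cells (0) it was 1 with no filter on cells together with CPM, fixed limits, pooled counts or means of log2 values, and 2 with spike-in size factors, a threshold of 1.5-fold or no minimum mean. Without the cell of 40.9% spike-in counts the genes past 2-fold were Jak1 and Stat3 between gates, and Lifr, Jak1 and Stat3 between media. Shares of cells with a count stayed within their interval for 28 of 28 values with thinned cells, 27 with no filter on cells and 23 at 10 or more counts. Spike-in size factors moved the median log2 ratio of all genes from 0.09 to -1.58 between media in small cells, and poscounts from -0.03 to 0.41 in ungated cells. No paired analysis was possible because each group is 1 sample and no result comes from a test.

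With 12 to 22 cells per group, intervals of shares are wide, so a small difference in share was not detectable. Genes held by under 3 cells per group have ratios that compare single cells.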
